A study of Mus musculus with 6 samples.

Results

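The genes of apoptosis, necroptosis and the inflammasome were followed in the renal cortex of mice on day 14 after unilateral ischemia-reperfusion injury (UIRI), with and without the compound BA. Members were chosen by symbol alone. They were the numbered caspases, the gasdermins, the numbered Nlrp genes, every symbol that begins with Bcl2, the numbered Birc genes and 15 further genes of the same routes from Bax to Fadd. The table held 51 such genes among its 19176 rows, and 2 of them are pseudogenes (Nlrp5-ps and Nlrp1c-ps). The UIRI group was 3 wild-type C57BL/6J mice, male and 8 weeks old according to the methods, that received vehicle (dilute ethanol in saline) by daily intraperitoneal injection. The UIRI + BA group was 3 mice of the same strain and genotype that received BA at 1 mg/kg each day by the same route. In both groups the left renal pedicle was clamped and, per the methods, the right kidney was removed on day 13. No sham kidney was compared here, so the values say how BA-treated injured cortex differed from injured cortex and not what the injury did.

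Apoptosis runs through caspases, proteases that are switched on either at death receptors (Fadd and Casp8) or by cytochrome c released from mitochondria (Apaf1 and Casp9), and the Bcl2 family decides whether Bax and Bak1 open the mitochondrial outer membrane. Necroptosis is a lytic death in which Ripk3 activates the membrane-breaking protein Mlkl, and pyroptosis is a lytic death in which inflammasome sensors, the adaptor Pycard and the inflammatory caspases cleave Gsdmd into a pore. In the injured kidney tubule cells and infiltrating leukocytes both use these routes, and much of their control lies in protein cleavage and phosphorylation, which mRNA does not show.

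Markers of proximal tubule (15), podocytes (5), thick limb (6) and collecting duct (8) were all detected in every library, so they show kidney and do not tell cortex from medulla. Libraries held 16510720 to 38124164 reads on genes, and UIRI replicate 3 was the deepest, with 2.04 times the median of the other 5. UIRI replicate 3 also stood apart in content. Its summed macrophage markers (94667 normalized counts) lay below those of UIRI replicates 1 and 2 (134953 and 122484) and inside the range of the UIRI + BA libraries (90702 to 104307), so the calls are also given without it, as are the differences that moved most. Urothelium markers were highest in the libraries labelled replicate 3 of each group (775 in UIRI and 485 in UIRI + BA, against 88.9 to 265 in the other 4).

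A few promoters that hold a match to the letters below are printed so that their upstream sequence can be read side by side. They are not the members with the smallest p in limma, since Casp12, Bid and Pmaip1 are not among them. Of the 51 members, 42 had at least 1 window in RefSeq (GRCm38.p6), and 250 bases upstream of each start were searched on both strands for the AP-1 letters TGACTCA, the ETS/PU.1 letters GAGGAAGT, the interferon-response letters (GAAA, any 2 bases, GAAA) and the kappaB letters (GGG, any 2 bases, TTTCC). No build is named for the counts, so only the symbol ties these windows to the measured genes. A match says that the letters are there and nothing about binding. Nlrp6, the inflammasome sensor with the largest positive difference, was the only 1 of these 42 members with the AP-1 letters, which 4.46% of all 32851 windows hold. In the run below they stand in capitals on the opposite strand, 133 bases before the start.
Nlrp6 (chr7:140920652-140920901, plus strand): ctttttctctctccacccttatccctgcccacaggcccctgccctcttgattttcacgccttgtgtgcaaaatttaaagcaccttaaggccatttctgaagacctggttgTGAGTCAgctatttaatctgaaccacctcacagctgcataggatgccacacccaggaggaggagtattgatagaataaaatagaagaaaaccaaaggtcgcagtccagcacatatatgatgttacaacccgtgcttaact
The ETS/PU.1 letters, chosen after these windows had been read, were found in 8 of 55 member windows and in 2.44% of all windows. The 8 genes were Aim2, Bak1, Bcl2a1a, Bcl2a1b, Bcl2a1d, Nlrp1a, Nlrp1b and Pycard. Because the letters were picked from these windows, and 3 of the 8 genes are near-identical copies, the comparison is no test of enrichment. The DNA sensor Aim2 and the protease-activated sensor Nlrp1b are shown because both had lower means with BA, with the letters in capitals.
Aim2 (chr1:173420454-173420603, plus strand): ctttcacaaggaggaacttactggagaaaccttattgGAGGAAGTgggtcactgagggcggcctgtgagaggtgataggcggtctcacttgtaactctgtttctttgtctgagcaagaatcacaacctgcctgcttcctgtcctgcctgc
Nlrp1b (chr11:71230734-71230883, minus strand): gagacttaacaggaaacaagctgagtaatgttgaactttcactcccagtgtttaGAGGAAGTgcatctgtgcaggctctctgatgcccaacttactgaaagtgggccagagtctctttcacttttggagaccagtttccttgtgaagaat
The 3 Bcl2a1 genes are near-identical copies on chromosome 9, and their promoters show how alike they are. Over the stretch printed they differ at 2 positions, which are in capitals together with the ETS/PU.1 letters.
Bcl2a1a (chr9:88956814-88956919, plus strand): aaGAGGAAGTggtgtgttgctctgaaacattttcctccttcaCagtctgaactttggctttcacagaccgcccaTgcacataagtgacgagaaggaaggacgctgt
Bcl2a1b (chr9:89199123-89199228, plus strand): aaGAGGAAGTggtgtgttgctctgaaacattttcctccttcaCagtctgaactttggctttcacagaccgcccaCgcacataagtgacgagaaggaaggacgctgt
Bcl2a1d (chr9:88731851-88731956, minus strand): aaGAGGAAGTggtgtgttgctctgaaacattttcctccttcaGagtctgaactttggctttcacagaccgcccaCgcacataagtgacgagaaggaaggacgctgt
The kappaB letters were found in 6 of 55 member windows, those of Bbc3, Bcl2l1, Birc5, Casp4 and Mcl1, and in 1.41% of all windows. Casp4 counts with 2 windows, and no test of enrichment was run. Casp4, the caspase that senses bacterial lipopolysaccharide inside cells, is shown with its 2 matches in capitals, of which the second is on the opposite strand.
Casp4 (chr9:5308699-5308848, plus strand): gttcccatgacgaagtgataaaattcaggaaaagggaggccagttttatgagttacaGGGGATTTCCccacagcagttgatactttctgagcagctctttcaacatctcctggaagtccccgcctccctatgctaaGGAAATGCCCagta
The interferon-response letters were in 0 of the 55 member windows and in 2.98% of all windows.

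Few of these genes differed between the groups by more than their replicates did. The member with the smallest p was Nlrp6, whose mean was 49.7% higher with BA, followed by the endoplasmic reticulum caspase Casp12, 16.6% lower, and the BH3-only genes Bid and Pmaip1, 25.3% and 26.0% higher. The genes Aim2, Bcl2a1b and Bcl2a1d were 18.3%, 28.0% and 20.2% lower. These 7 genes are the members with an unadjusted p below 0.05 in limma, 3 higher and 4 lower with BA. Of all rows 5.67% passed that mark in the higher direction and 4.61% in the lower direction, against 5.88% and 7.84% of members. After Benjamini-Hochberg adjustment over all 19176 rows, limma called 0 of the 51 members and 0 of all rows (0%), with 1971 rows at an unadjusted p below 0.05. In edgeR's quasi-likelihood test 6 of the 50 members tested (12%) had an unadjusted p below 0.05, beside 9.93% of all 17155 genes tested, and 0 members had an adjusted p below 0.05. In DESeq2 on the recovered reads 1 member, Nlrp6, had an adjusted p below 0.05, where 1.49% of all genes with an adjusted p were called. Over all members the median log2 difference, BA minus UIRI, was -0.07 (22 higher, 29 lower), beside -0.01 over all rows.

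**Figure D1:**
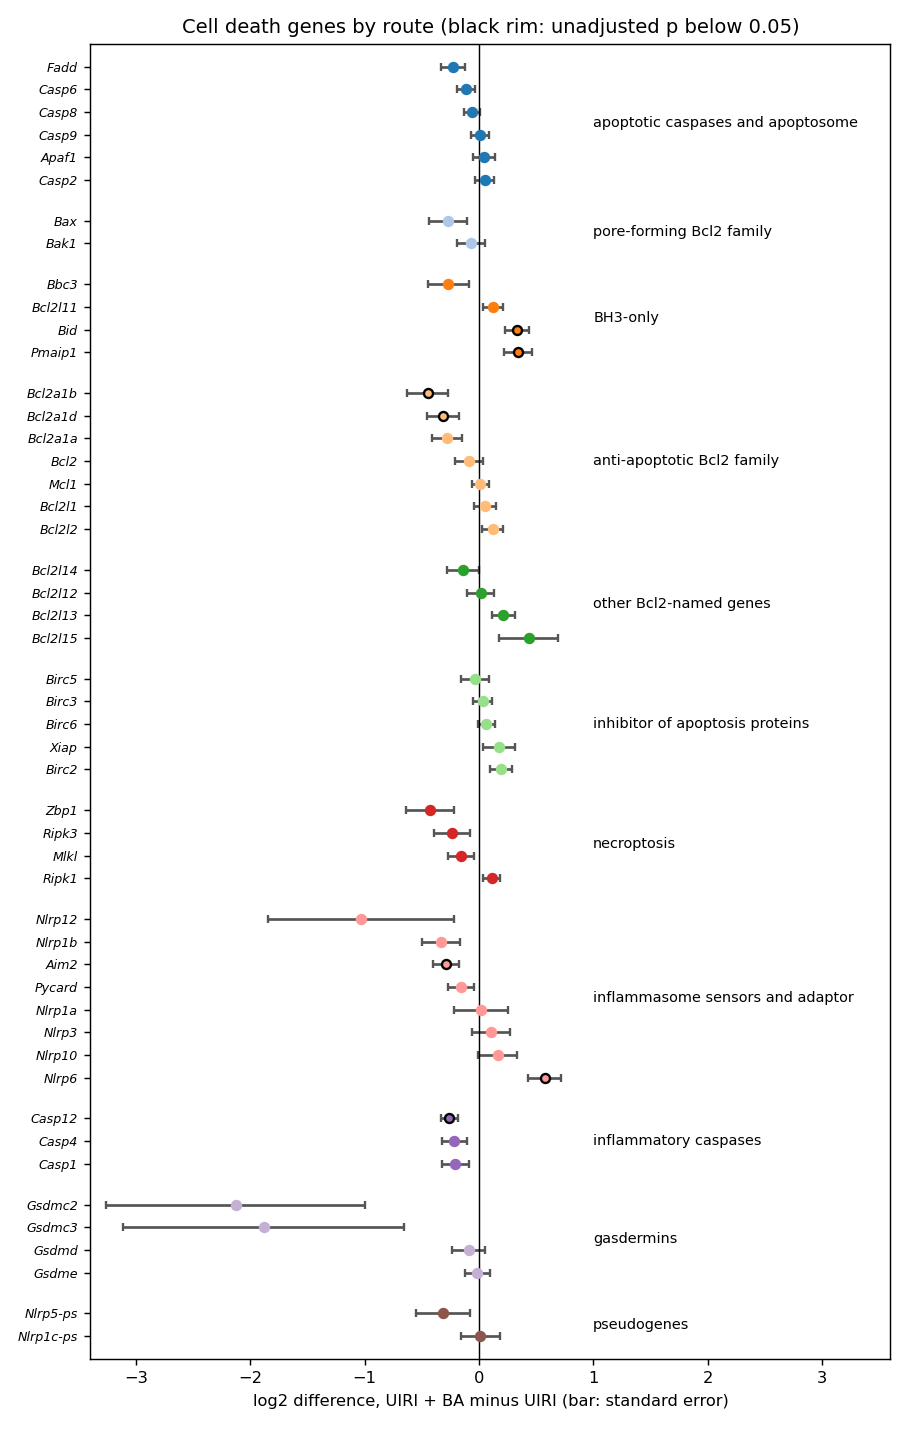
The log2 difference between UIRI + BA and UIRI is plotted for the members by route, as points with the standard error from limma as bars, on the log2(normalized count + 1) scale. Most points lie within 0.5 of 0, Nlrp6 is the member farthest to the right at 0.58, and the far-left Gsdmc2, Gsdmc3 and Nlrp12 have wide bars.

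Nlrp6 encodes a sensor of the NOD-like receptor family that is known chiefly from intestinal epithelium. Its normalized counts in UIRI replicates 1, 2 and 3 were 347, 416 and 459, against 586, 520.2 and 722 in the BA replicates, and values of other genes follow the same order. All 3 BA libraries lay above all 3 UIRI libraries. The means were 407 ± 56.7 and 609.5 ± 103 (SD, n = 3 each). The log2 difference of 0.58 (standard error 0.14) had an adjusted p of 0.284 in limma and 0.0307 in DESeq2, and over all alternatives the adjusted p ran from 0.0307 to 0.9995. Leaving out any 1 library kept the difference between 0.45 and 0.68, and Nlrp6 and Casp12 were the only members whose unadjusted p stayed below 0.05 in all 6 of these fits. Proximal tubule markers were higher with BA as well. All 15 of them had a positive difference, 7 with an adjusted p below 0.05 in DESeq2, and their sum ran from 61949 to 78553 normalized counts in UIRI and from 85548 to 143082 in UIRI + BA. As a ratio to Lrp2, the endocytic receptor of the proximal tubule, Nlrp6 was 0.119, 0.115 and 0.0896 under vehicle and 0.0837, 0.0949 and 0.102 with BA, and those ranges overlapped. In mixed tissue, more cells of a type and more RNA per cell cannot be told apart, and the part of proximal tubule content in the Nlrp6 difference was not tested.

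Casp12 encodes a caspase of the inflammatory group that resides at the endoplasmic reticulum. It measured 1682, 1615 and 1523 under vehicle and 1293, 1368 and 1359.7 with BA. The groups did not overlap, and replicates within a group were close. The means were 1607 ± 80.0 and 1340.1 ± 41.1 (SD, n = 3 each), and the log2 difference was -0.26 (standard error 0.07, adjusted p 0.332 in limma). It stayed between -0.30 and -0.23 with any 1 library left out. Fibroblast markers were lower with BA as well. All 8 had a negative difference, and Col1a1, Col1a2, Col3a1 and Pdgfrb had groups that did not overlap. Col1a1 and Col3a1, fibrillar collagen genes, had adjusted p values of 0.0307 and 0.0457 in DESeq2. The summed fibroblast markers were 107803, 89471 and 97356 under vehicle and 65854, 70022 and 87335 with BA, without overlap. Macrophage and neutrophil markers were lower with BA too, as given below. The part of fibroblast or leukocyte content in the Casp12 difference was not tested. The other 2 inflammatory caspases also had negative differences, with overlapping groups. Casp1, which matures interleukin-1 beta and cleaves Gsdmd, read 622, 637 and 490.1 under vehicle and 476, 544 and 488 with BA (log2 difference -0.21, adjusted p 0.568 in limma). Casp4 read 1555, 1524 and 1248 under vehicle and 1130.0, 1369.9 and 1219.8 with BA (-0.22, adjusted p 0.528 in limma). For both genes UIRI replicate 3 sat among the BA libraries. All 3 genes lie on chromosome 9.

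Among the other inflammasome sensors the differences went both ways. Aim2, the sensor of cytosolic DNA, read 687, 629.9 and 551 under vehicle and 511, 561 and 453 with BA, with an overlap between UIRI replicate 3 and UIRI + BA replicate 2. The log2 difference was -0.29 (standard error 0.12, adjusted p 0.456 in limma). Nlrp1b, a sensor set off by bacterial proteases, read 689.9, 754 and 496 under vehicle and 471, 592 and 463 with BA (log2 difference -0.33, adjusted p 0.519 in limma). It is outside the set of genes chosen by rule and is named because its call depends on UIRI replicate 3. Nlrp3, the best-studied inflammasome sensor of the injured kidney, was low and showed no consistent side. It read 151, 162 and 172 under vehicle and 209, 184 and 137 with BA, a log2 difference of 0.11 (standard error 0.17, adjusted p 0.825 in limma) that turned to -0.02 when UIRI + BA replicate 1 was left out. Pycard, the adaptor that joins sensors to Casp1, read 822, 791 and 628 under vehicle and 660.2, 704 and 637 with BA, with a log2 difference of -0.15 (adjusted p 0.639 in limma). Of the 8 sensors and adaptor, 4 were higher and 4 lower, with a median log2 difference of -0.07. That median was positive with the filter on means (0.018) and in edgeR (0.042), but both leave out Nlrp12, so it covers fewer genes there. With the same genes it was 0.019 without UIRI + BA replicate 3 and -0.16 without UIRI + BA replicate 1, so it has no settled direction. The remaining 3 were Nlrp10, Nlrp1a and Nlrp12, the last with at most 10.4 normalized counts in any library and 0 reads in UIRI + BA replicate 2, where a count of 0 allows up to 3 reads. Their differences were 0.17, 0.02 and -1.03, and the pseudogenes Nlrp1c-ps and Nlrp5-ps stood at 0.01 and -0.32.

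**Figure D2:**
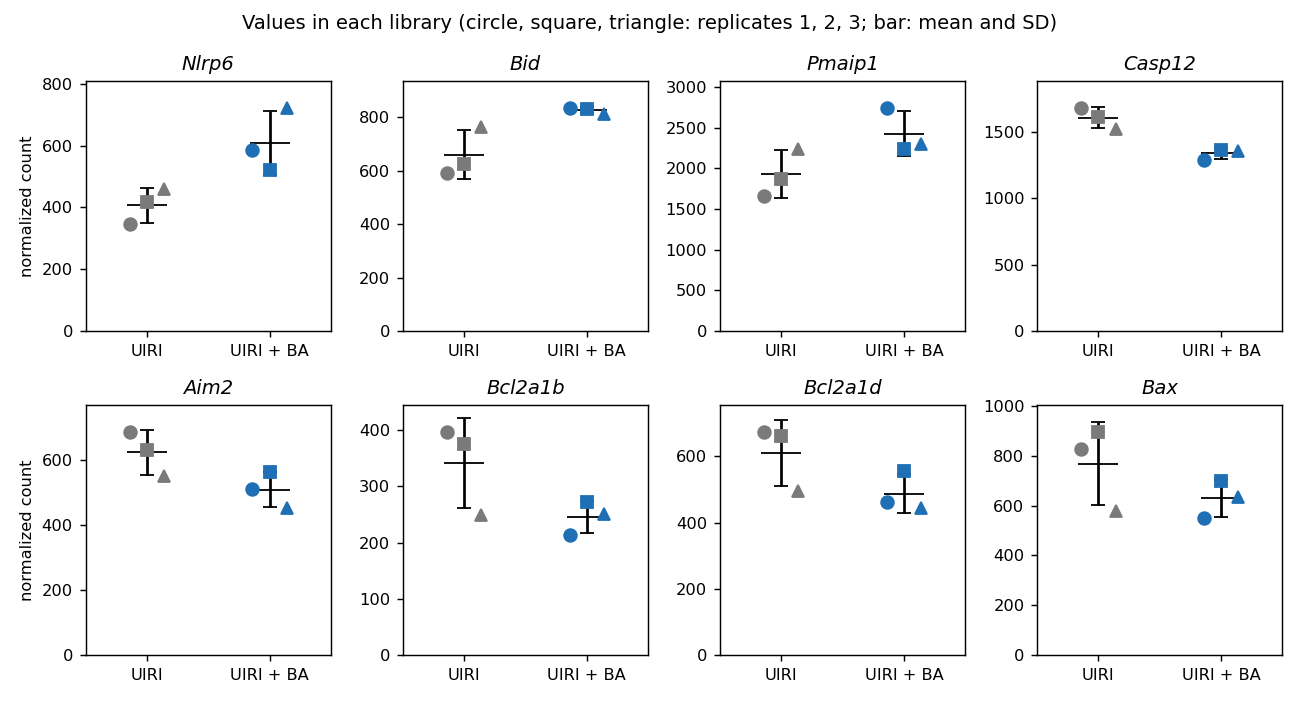
Normalized counts of 8 members are drawn for every library, with symbols for replicates 1 to 3 and the mean and SD of each group as bars, on axes that start at 0. Nlrp6, Bid and Casp12 show groups that do not overlap, and in Bcl2a1b, Bcl2a1d and Bax UIRI replicate 3 lies with the BA libraries.

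Gasdermins are the pore proteins at the end of the pyroptotic route. Gsdmd, the substrate of Casp1 and Casp4, read 1386, 1439.7 and 1078 under vehicle and 1194, 1436 and 1038 with BA (log2 difference -0.09, adjusted p 0.827 in limma), and libraries within a group differed more than the groups did. Gsdme, a gasdermin cleaved during apoptosis, read 1350.4, 1367 and 1348 under vehicle and 1125, 1457 and 1471 with BA (-0.01, adjusted p 0.967 in limma). The spread of Gsdme was far wider with BA, with an SD of 196 against 10.2.

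Gsdmc2 and Gsdmc3, epithelial gasdermins whose values are given after they were seen, had the most negative log2 differences of all members, -2.13 and -1.88, with standard errors of 1.13 and 1.23. Gsdmc2 read 48.7, 41.6 and 195 under vehicle and 7.52, 3.23 and 137 with BA, from 6, 3 and 131 reads in the BA libraries. Gsdmc3 read 30.6, 21.4 and 157 under vehicle and 5.01, 2.15 and 116 with BA. Both genes were highest in the libraries labelled replicate 3, so the groups overlapped, and the adjusted p values were 0.546 and 0.604 in limma, while DESeq2 assigned them none. The size depends on the scale, since the group means were 48.3% and 41.04% lower with BA and the log2 differences were -0.95 and -0.76 in DESeq2 and -0.99 and -0.82 in edgeR. With each library left out in turn limma gave -3.64 to -1.12 for Gsdmc2 and -3.47 to -0.86 for Gsdmc3. Urothelium markers had the same shape across libraries. All 10 were lower with BA, and their sum was 265, 211 and 775 under vehicle and 88.9, 108 and 485 with BA, while Krt14, Upk2 and Upk3a were at 0 in at least 1 library. Relative to the basal keratin Krt15, Gsdmc2 stood at 0.878, 0.860 and 0.899 in UIRI and at 0.897 in UIRI + BA replicate 3. In the other BA libraries the ratio, 6.00 and 0.600, rests on a few reads. Without both libraries labelled replicate 3 the log2 differences were -2.94 for Gsdmc2 and -2.61 for Gsdmc3, with adjusted p values of 0.0161 and 0.0333 in limma. Over all alternatives these p values ran up to 0.9995. Leaving out those libraries was chosen after the data were seen. Both genes were highest in them, so the smaller p values are no separate support for a difference. The part of urothelium content in these differences was not tested. The genes share 28.6% and 28.4% of their transcript sequence, in words of 100 bases, with other genes, chiefly each other and their family, so reads may be split among them.

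Of the 4 necroptosis genes, 3 had negative differences and the median was -0.20. Zbp1, a sensor of left-handed nucleic acid that recruits Ripk3, read 807, 851 and 526 under vehicle and 570.0, 634 and 407 with BA (log2 difference -0.43, standard error 0.21, adjusted p 0.516 in limma). Ripk3, the kinase that activates Mlkl, read 346, 314 and 259 under vehicle and 251, 310.2 and 220.2 with BA (-0.24, adjusted p 0.607 in limma). Mlkl, the executioner, read 299, 322 and 262 under vehicle and 256, 281 and 254 with BA (-0.16, adjusted p 0.638 in limma). In all 3 genes the groups overlapped, and UIRI replicate 3 was the lowest UIRI library. Ripk1, the kinase that joins death-receptor signaling to both survival and death, stood on the other side. It read 1108, 1098 and 1119 under vehicle and 1234, 1219 and 1143 with BA, without overlap, but the log2 difference was only 0.11 (standard error 0.07, adjusted p 0.603 in limma).

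Leukocyte markers were lower beside several of the lower members. All 12 macrophage markers were lower with BA, and their sum ran from 94667 to 134953 in UIRI and from 90702 to 104307 in UIRI + BA. All 6 measured neutrophil markers were lower as well, with sums of 1491 to 2021 in UIRI and 1180.2 to 1331 in UIRI + BA. Per unit of Ptprc, the common leukocyte antigen, Aim2 was 0.0973, 0.0853 and 0.0818 under vehicle and 0.0693, 0.0786 and 0.0779 with BA, which did not overlap. The ratios of Bcl2a1b, Bcl2a1d, Nlrp1b, Zbp1 and Casp1 to Ptprc overlapped between the groups. Ptprc had the smallest log2 difference of the 5 general leukocyte markers, -0.07. The others ran from -0.21 (Laptm5) to -0.32 (Cd52), close to the -0.29 of Aim2. Ratios to those markers were not computed, so the Aim2 result holds for Ptprc alone. The part of leukocyte content in these differences was not tested.

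**Figure D3:**
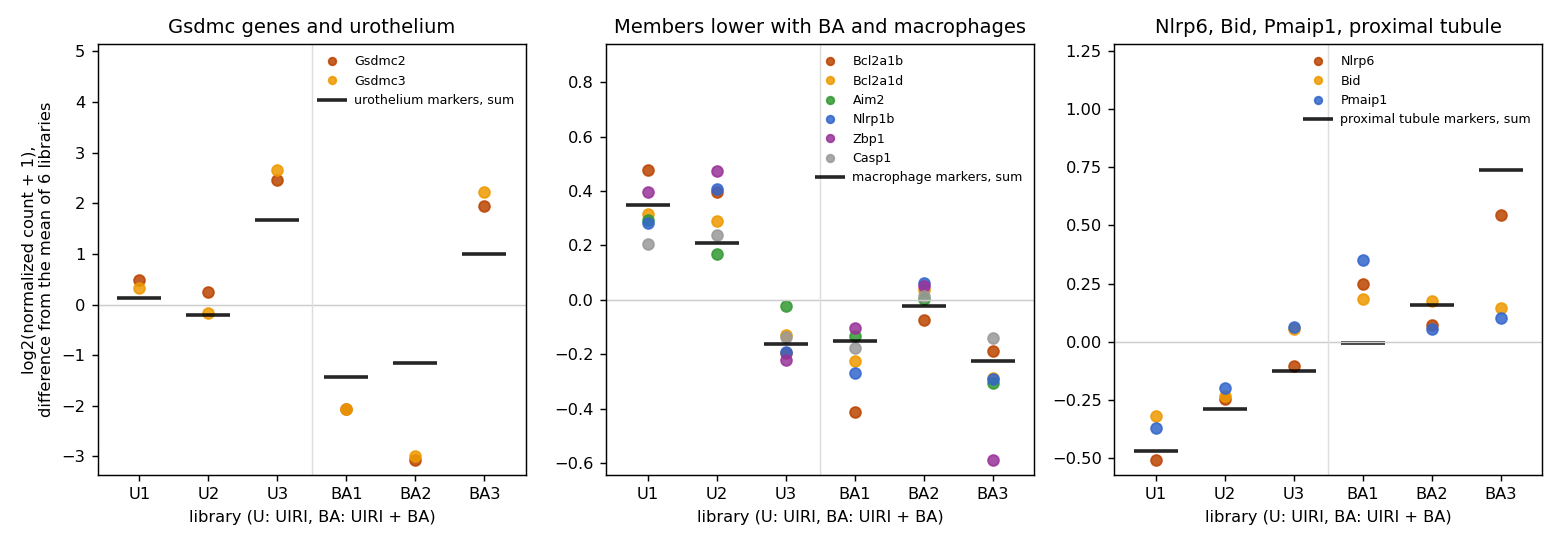
For each library, points show log2(normalized count + 1) of the named members and black bars that of a summed marker list, as the difference from its mean over 6 libraries. Gsdmc2 and Gsdmc3 stand with urothelium markers in being highest in both libraries labelled replicate 3, 6 members are high with macrophage markers in UIRI replicates 1 and 2, and Nlrp6 has its lowest and highest values in the libraries where proximal tubule markers have theirs.

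The BH3-only genes encode the proteins that set off Bax and Bak1 or block their inhibitors. Bid, which Casp8 cleaves to link death receptors to mitochondria, read 589, 625 and 762 under vehicle and 834, 830.3 and 812 with BA, without overlap. The means were 659 ± 91.4 and 825 ± 12 (SD, n = 3 each). The log2 difference was 0.33 (standard error 0.11, adjusted p 0.371 in limma), and it lay between 0.26 and 0.44 with any 1 library left out. Pmaip1, the p53 target also called Noxa, read 1661, 1873 and 2243 under vehicle and 2742, 2232 and 2304 with BA. UIRI replicate 3 lay just above UIRI + BA replicate 2, so the groups overlapped, and the log2 difference was 0.34 (standard error 0.12, adjusted p 0.431 in limma). Bcl2l11, also called Bim, read 778, 855 and 823 under vehicle and 958, 913 and 809.7 with BA (log2 difference 0.12, adjusted p 0.637 in limma). Bbc3, also called Puma, was the 1 BH3-only gene with a negative difference, -0.27 (adjusted p 0.618 in limma).

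The pore formers had negative differences and wide spread. Bax read 828, 899 and 581 under vehicle and 551, 701 and 637 with BA, a log2 difference of -0.27 (standard error 0.16, adjusted p 0.576 in limma). Bak1 read 964, 859 and 686 under vehicle and 782, 829 and 763 with BA (-0.07, adjusted p 0.855 in limma). UIRI replicates 1 and 2 were the highest libraries for both genes, and UIRI replicate 3 was below most BA libraries. The ratio of Bax to Bcl2, often read as a balance of death and survival signals, was 1.07, 1.14 and 0.566 under vehicle and 0.636, 0.955 and 0.778 with BA, so the ratio overlapped between the groups.

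On the anti-apoptotic side the leukocyte gene copies of Bcl2a1 had lower means with BA, but the groups of each copy overlapped. The groups of the widely used members overlapped as well, with smaller differences. Bcl2a1b read 398, 376 and 249 under vehicle and 214, 271 and 250.4 with BA (log2 difference -0.45, standard error 0.18, adjusted p 0.462 in limma). Bcl2a1d read 675, 662 and 496 under vehicle and 464, 556 and 443 with BA (-0.32, standard error 0.14, adjusted p 0.486 in limma). Bcl2a1a, given after its values were seen, had a difference of -0.28 (adjusted p 0.503 in limma). The copies share 43.5% to 56.8% of their transcript sequence with one another and 1 further annotated gene in words of 100 bases, so reads can be split among them and each single value is less certain. Bcl2 itself read 773, 788 and 1025 under vehicle and 867, 734 and 818 with BA. Its log2 difference of -0.09 (adjusted p 0.806 in limma) became 0.04 without UIRI replicate 3, where Bcl2 was highest. Bcl2l1, also called Bcl-xL, read 1536, 1433 and 1789 under vehicle and 1586, 1710.2 and 1626 with BA (0.05, adjusted p 0.845 in limma). Mcl1, a short-lived guard of mitochondria, read 9297, 9150.0 and 10004 under vehicle and 9899, 9747 and 9066 with BA (0.01, adjusted p 0.960 in limma). Bcl2l2, another guard, stood at 0.12. Among the other genes with Bcl2 in the name, 3 of 4 were higher, and Bcl2l13, a mitochondrial member, read 547, 525 and 632 under vehicle and 698, 642 and 633 with BA (0.21, adjusted p 0.495 in limma). Its groups did not overlap, though UIRI replicate 3 came close to UIRI + BA replicate 3. Bcl2l15 rested on 13.5 to 20.4 normalized counts under vehicle and 23 to 23.8 with BA (0.44, adjusted p 0.572 in limma), and 18.1% of its sequence is shared with another annotated gene. Bcl2l12 and Bcl2l14 stood at 0.02 and -0.14.

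Of the apoptotic caspases and their activators, 5 of 8 were lower and the median was -0.08. Fadd, the death-receptor adaptor, read 389.7, 344 and 348 under vehicle and 296, 341 and 288 with BA, a log2 difference of -0.23 (standard error 0.11, adjusted p 0.515 in limma). Casp6, an executioner caspase, read 904, 948 and 848 under vehicle and 803, 841 and 847 with BA (-0.12, adjusted p 0.622 in limma). The groups of both genes did not overlap, yet each difference was small. The initiator caspases did not differ beyond their spread. Casp8, the death-receptor initiator, read 2005, 2062 and 1906 under vehicle and 1907, 1898 and 1926 with BA (-0.06, adjusted p 0.766 in limma). Casp9, the mitochondrial initiator, read 587, 606 and 604 under vehicle and 598, 599.9 and 610.4 with BA (0.01, adjusted p 0.973 in limma). Apaf1, the scaffold of the apoptosome, read 964, 982 and 1118 under vehicle and 1164, 1033 and 966 with BA (0.04, adjusted p 0.880 in limma). Casp2 had a difference of 0.05.

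The inhibitor of apoptosis genes were mostly on the positive side, 4 of 5, with a median of 0.06. Birc2, which ubiquitinates Ripk1, read 4202, 4681 and 3738 under vehicle and 4725, 5139 and 4511 with BA (log2 difference 0.19, standard error 0.10, adjusted p 0.528 in limma). Xiap, the direct caspase inhibitor, read 3084, 3189.8 and 3999 under vehicle and 4656, 3398 and 3569.8 with BA (0.17, adjusted p 0.663 in limma). That difference was 0.034 without UIRI + BA replicate 1 and 0.29 without UIRI replicate 3. Birc3, the close relative of Birc2, read 3048, 3251 and 3239 under vehicle and 3144, 3596 and 3041 with BA (0.03, adjusted p 0.897 in limma). Birc5, or survivin, is a gene of dividing cells. It read 240.2, 220.5 and 198 under vehicle and 195, 226 and 221 with BA (-0.03, adjusted p 0.932 in limma), and the summed proliferation markers also overlapped, at 4410.4 to 4705 in UIRI and 4527 to 4754 in UIRI + BA. The giant Birc6 had a difference of 0.06.

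Across all members the 2 groups did not overlap in 9 genes. The 5 higher ones were Nlrp6, Bid, Ripk1, Bcl2l13 and Bcl2l15 (9.80% of members, beside 7.45% of all rows), and the 4 lower ones included Casp12, Fadd and Casp6 (7.84%, beside 6.96%). Both shares lie near those of the whole table. For each single gene without overlap the exact two-sided permutation test gave p = 0.1, the smallest that 3 against 3 allow.

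Levels between genes were compared per length, as RPKM, that is reads scaled to kb of exon and to the reads on genes of the library. Mcl1 was by far the most abundant member, at 132 in UIRI and 133 in UIRI + BA. By the mean over all libraries it was followed by Birc2 (43.7 and 49.7), Pmaip1 (33.6 and 42.3), Casp8 (32.7 and 31.4) and Birc3 (30.2 and 30.9). Gsdmd stood at 26.0 and 24.4, and the inflammatory caspases Casp1, Casp4 and Casp12 lay together between 15.9 and 19.9. The kinases and executioner of necroptosis were lower, with Ripk1 at 6.32 and 6.83, Ripk3 at 6.35 and 5.4 and Mlkl at 6.08 and 5.43. Nlrp6 rested at 3.82 and 5.70, above Nlrp3 at 1.89 and 2.07. Bcl2 mRNA, at 4.48 and 4.19, was well below that of its relatives Bcl2l1 (16.5 and 17.0) and Mcl1. The lowest members were Nlrp12, Bcl2l15 and Nlrp1a, each under 1.

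**Figure D4:**
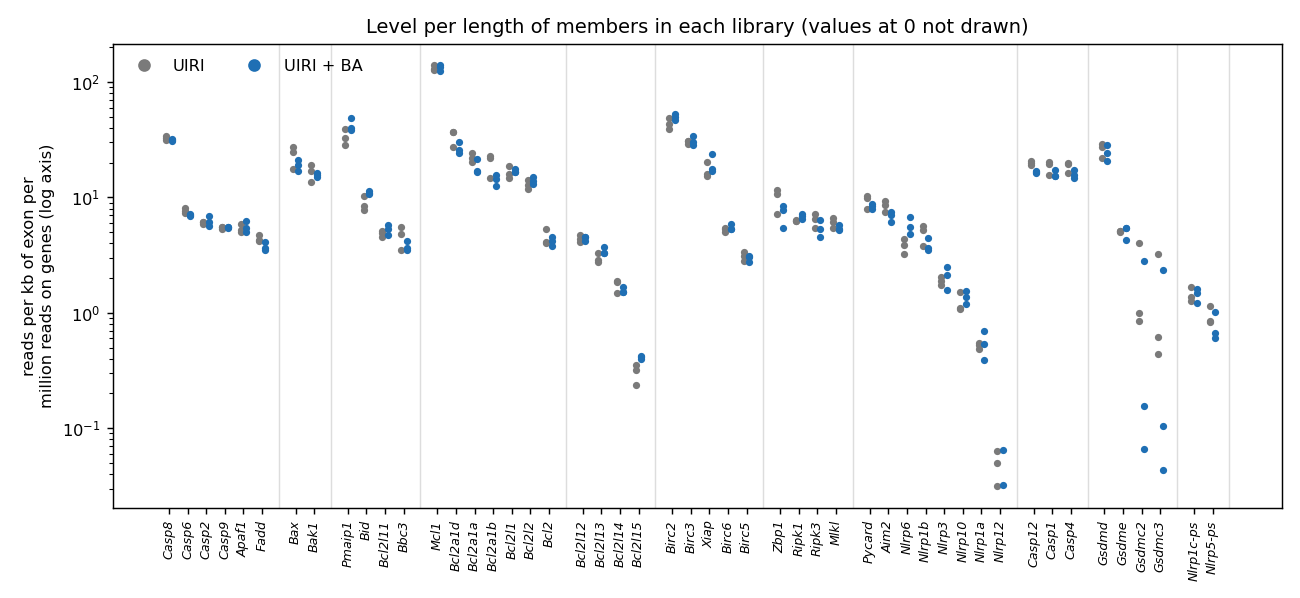
Each point is the level of 1 member in 1 library, in RPKM (reads scaled to kb of exon and to library size), on a log axis, with UIRI in grey and UIRI + BA in blue and members ordered by route. Mcl1 is highest at about 132, most members lie between 1 and 50 with the groups intermixed, and the Gsdmc genes spread widest across libraries.

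Other genes of the same routes came from lists of 56 measured partners, such as death receptors and ligands, cytochrome c and other genes of mitochondrial release and DNA cleavage, and interleukins. With BA 27 stood higher and 29 lower, and the median log2 difference was -0.03. At an unadjusted p below 0.05 in limma 2 were higher and 4 lower (3.57% and 7.14% of partners, beside the 5.67% and 4.61% of all rows), and 0 had an adjusted p below 0.05 in limma or DESeq2. The 6 genes are named after their values were seen. Cflar, the inhibitor of Casp8, read 2849, 2895 and 4030 under vehicle and 4182, 3785 and 3870.3 with BA (log2 difference 0.29). Fasl, the ligand of the Fas receptor, read 49.8, 43.9 and 41.1 under vehicle and 26.3, 33.4 and 28.2 with BA (-0.60), without overlap. The others were Tnfrsf21 (0.31), Il1a (-0.71), Nlrx1 (-0.34) and Naip5 (-0.27). Of the 20 partners that feed or follow the inflammasome, 15 were lower, among them Il1b at -0.26 (adjusted p 0.565 in limma) and Il18 at -0.30 (adjusted p 0.536 in limma), the cytokines that Casp1 matures. Without UIRI replicate 3 limma gave 3 partners an adjusted p below 0.05 (5.36% of partners, near the 5.02% of all rows). They were Cflar (0.46, adjusted p 0.0143), Tnfaip3 (0.44, adjusted p 0.0339) and Bok (-0.49, adjusted p 0.0419).

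UIRI replicate 3 decided how many members were called. Without it limma gave 8 members an adjusted p below 0.05 (15.7% of members, beside 5.02% of all rows). They were Nlrp6 (log2 difference 0.67, adjusted p 0.0359), Pmaip1 (0.45, 0.0384) and Bid (0.44, 0.0209), which were higher, and Casp12 (-0.30, 0.0454), Bax (-0.46, 0.0465), Bcl2a1d (-0.46, 0.0469), Nlrp1b (-0.51, 0.0450) and Bcl2a1b (-0.66, 0.0258), which were lower. For each of the 8 the adjusted p over all alternatives reached 0.9995. UIRI replicate 3 had been set apart for its depth and because its macrophage markers lay inside the BA range. Leaving out a UIRI library that resembles the BA libraries favors larger differences in genes that follow those markers. The 8 calls are therefore no separate support for a difference. With 2 UIRI libraries left, 31 members had groups that did not overlap, 11 higher and 20 lower (60.8%, beside 45.4% of all rows). Leaving out any 1 of the other 5 libraries instead gave 0 members. Dropping both libraries labelled replicate 3 gave 5 members (9.8%, beside 2.9% of all rows), Bid, Bcl2a1b, Zbp1, Gsdmc2 and Gsdmc3. With those 4 libraries 40 members had groups that did not overlap (78.4%, beside 56.2% of all rows). This setting was chosen after the data were seen, and Gsdmc2 and Gsdmc3 were highest in the libraries it drops. Its 5 calls are no separate support either.

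UIRI replicate 3 also changed the size of many differences that were not called. Without it the log2 difference was more than 1.5 times larger in 18 of the 51 members and smaller by that factor in 3, and the sign turned for Bcl2 and the pseudogene Nlrp1c-ps (-0.02). On the lower side limma then gave -0.65 for Zbp1 (adjusted p 0.0528), -0.46 for Bbc3 (0.0912), -0.33 for Casp1 (0.0748), -0.27 for Pycard (0.0861), -0.24 for Mlkl (0.219), -0.22 for Gsdmd (0.288) and -0.20 for Bak1 (0.181). On the higher side it gave 0.31 for Nlrp10 (adjusted p 0.262), 0.18 for Bcl2l2 (0.200) and 0.14 for Bcl2l1 (0.254). The difference of Birc2 shrank to 0.11 (adjusted p 0.438 in limma) and that of Gsdmc3 to -1.03 (0.640). Some of the 18 larger differences stayed near 0, as for Casp9 (0.0091 with all libraries and 0.015 without this one) and Mcl1 (0.013 and 0.052). The share of such shifts over all rows was not computed, so they are not shown to be particular to the members.

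**Figure D5:**
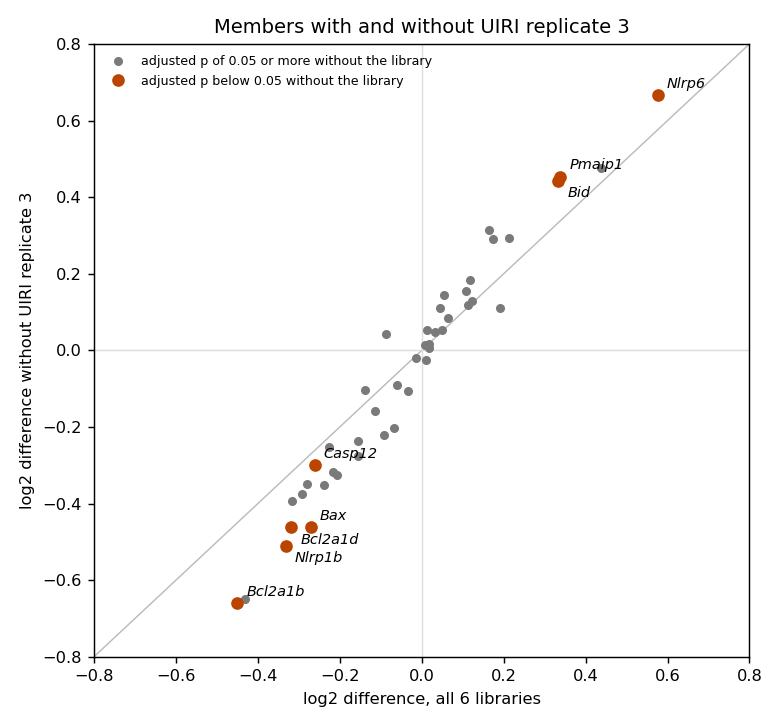
The log2 difference of the members without UIRI replicate 3 is plotted against that from all 6 libraries, both from limma, with a line of equality. The 8 orange points are the members with an adjusted p below 0.05 without the library, all farther from 0 than with it, and Gsdmc2, Gsdmc3 and Nlrp12 lie outside the range and are not drawn.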

How the data were processed

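Poly(A) RNA of renal cortex was sequenced in 3 UIRI and 3 UIRI + BA libraries, grouped by their labels. According to the methods, HISAT2 was the aligner, FeatureCounts the counter and DESeq2 the authors' test. The build is not given in the sources used here. Per the labels the libraries were strand-specific, and whether counting used strand is not given. The deposited values are a signal, namely gene counts over 1 size factor per library, and whole reads came back for 100% of them (tolerance 0.001). Their fold changes, p-values and enrichment tables were not used, and 0 sample columns were left unused. Rows start at 10 reads over the 6 libraries.

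limma 3.58.1 (R 4.3.3) was fitted to log2(value + 1) of all 19176 rows with an intensity trend and no covariate. Log2 differences of low genes depend on this scale and can be larger than in a count model. They were -2.13 in limma against -0.95 in DESeq2 for Gsdmc2, -1.88 against -0.76 for Gsdmc3 and -1.03 against -0.54 for Nlrp12. Adjustment was by Benjamini-Hochberg at 0.05. DESeq2 1.42.0 and edgeR 4.0.16 ran on recovered reads, and scipy 1.17.1 gave exact permutation tests. The fits were tested on simulated data, in which some genes were given a larger or a smaller log2 difference. At the larger size limma, DESeq2 and edgeR each recovered 100% of those genes. At the smaller size limma recovered 3.0%, DESeq2 10.0% and edgeR 7.0%. False calls numbered 3, 13 and 2 in the same order. Most member differences were below that smaller size. The simulation gave every gene the same dispersion and held no library that stood apart in content as UIRI replicate 3 did. Its shares therefore do not say how often such differences would be found in the real libraries. The lack of a call does not show that a member was unchanged. Libraries held 16510720 to 38124164 reads on genes, and p-values measure the spread among 3 libraries a group. Lengths and shared sequence came from GENCODE release M21, which held 98.2% of symbols.

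The members and lists were chosen with earlier results of these data known. Named are members with an unadjusted p below 0.05 in limma or an adjusted p below 0.05 in any tool, members without overlap at a mean of at least 50, and hub genes of each route, 34 in all. Other names were chosen after their values were seen. Values of 2 members are not reported here or drawn, though counts and medians include them. The alternatives were upper quartile, quantile and TMM scaling, a pseudocount of 0.1, a mean of at least 10, a replicate block, DESeq2, edgeR and each library left out.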

Additional observations from a re-analysis of the deposited data

How the results depend on the processing

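With other scalings, the smaller pseudocount, the filter, the replicate block and edgeR, 0 members had an adjusted p below 0.05. At an unadjusted p below 0.05 there were 9 with upper quartile scaling, which added Bcl2a1a and Fadd, and 6 with the filter or edgeR. Over all genes the count at an adjusted p below 0.05, 0 as reported, was 213 in DESeq2 and 0 to 962 with each library left out. Members at an adjusted p below 0.05 numbered 1 in DESeq2 and 0 to 8 with each library left out. At an unadjusted p below 0.05, leaving out 1 library gave 1 to 5 higher and 1 to 14 lower members and 808 to 4838 genes in all, and members without overlap ran from 10 to 31. Without both libraries labelled replicate 3, a setting chosen after seeing the data, 557 genes and 5 members had an adjusted p below 0.05. There 6 higher and 15 lower members and 4440 genes had an unadjusted p below 0.05, and 40 members did not overlap (78.4%, beside 56.2% of all rows). Those fits have fewer samples, and the cause of their counts was not tested. The replicate numbers share no stated animal or day, and deviations of same-numbered libraries correlated at -0.240, 0.304 and 0.155. With the replicate block 6 genes had an adjusted p below 0.05 and 8 members were lower at an unadjusted p below 0.05.

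Of 38 genes followed in 15 alternatives (570 comparisons), 27 kept their direction. The sign of Bcl2 turned without both libraries labelled replicate 3 (0.032), of Birc3 with quantile normalization (-0.011), and of Mcl1 (-0.0084) and Casp9 (-0.013) with upper quartile scaling. Over the fits that each lack 1 library, the log2 difference ran from -0.16 to 0.044 for Bcl2, -0.024 to 0.28 for Nlrp3, -0.22 to 0.020 for Gsdmd, -0.20 to 0.043 for Bak1, -0.016 to 0.14 for Bcl2l1, -0.039 to 0.082 for Birc3, -0.029 to 0.11 for Apaf1, -0.11 to 0.032 for Birc5, -0.012 to 0.052 for Mcl1, -0.0055 to 0.018 for Casp9 and -0.082 to 0.11 for Gsdme. Depth limits Gsdmc2, Gsdmc3 and Nlrp12, which had few reads in some libraries.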
